A study of Rattus norvegicus with 32 samples.

Results

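Mammary glands of the inbred rat strain F344 were compared with those of the inbred strain ACI, using the 5 arrays titled as F344 samples and the 5 titled as ACI samples. These 10 arrays were chosen by title from the 32 of the series, and an array of pooled F344 RNA was left out. The series is titled as a study of inherited susceptibility to mammary cancer among rat strains, and its other arrays come from the strains Cop, BUF/N and WF and from F1 hybrids between Cop and F344, with 5 samples each, plus a pool for Cop and one for F344. Per the labels, every sample was normal mammary gland, its total RNA was made into biotinylated cRNA, and each sample was hybridised to an Affymetrix rat array of its own. The F344 group was F344 normal mammary gland and the ACI group was ACI normal mammary gland, with no treatment, transgene or allele named for either. Age, sex, reproductive stage, hour of collection and batch are not given, and nothing says whether the samples of a strain were separate animals. All 6 groups were fitted together. The p-values below therefore measure the spread between samples within the 6 groups, which may be in part technical.

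The mammary gland holds ducts and small alveolar buds of 2 epithelial layers, luminal cells inside and contractile myoepithelial cells outside, set in a fat pad with fibroblasts, vessels and immune cells. Prolactin, progesterone and glucocorticoids drive luminal cells to make milk proteins, and the ovarian cycle drives bouts of cell division in the virgin gland. ACI is known as a strain whose females develop mammary cancer under continuous oestrogen, while F344 is a widely used inbred strain of separate ancestry. In whole tissue, fewer cells of a type and less RNA per cell cannot be told apart.

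Signals were Affymetrix values on a linear scale, scaled so that the trimmed mean was 250.3 to 250.4 on every array. Among the 10 arrays, ACI 2 and ACI 5 stood apart. Their median signals were 102.1 and 101.8, against 77.4 to 81.2 on the other ACI arrays and 68.9 to 77.1 on the F344 arrays, and their ratio of 3' to 5' actin signal was 1.779 and 1.803, against 1.187 to 1.481 on the other 8. The same ratio for GAPDH was not raised, at 0.887 on ACI 2 and 0.967 on ACI 5, against 0.910 to 1.127 on the other 8. Pearson's r over probe sets was 0.951 between ACI 2 and ACI 5, and 0.875 to 0.913 between either of them and ACI 1, 3 and 4. Within F344 it was 0.964 to 0.973, and it was 0.921 to 0.944 between F344 arrays and ACI 1, 3 and 4. Results are therefore given for all 10 arrays and again without ACI 2 and ACI 5.

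Of 5049 probe sets bright enough to test, 621 (12.3%) differed between F344 and ACI at an adjusted p of at most 0.05. Of these, 207 (4.1% of those tested) were higher in F344 and 414 (8.2%) were lower, with changes of at least 2-fold in 92 and 128. Signals of the 5 F344 and the 5 ACI arrays did not overlap for 408 of the 621 (8.08% of those tested), and for 660 (13.1%) of all tested. Without ACI 2 and ACI 5 the test called 242 probe sets (4.79%), 105 higher (2.08%) and 137 lower (2.71%). Of the 621, 206 were called again in the same direction, and all 621 had the same sign. Counted as 1 probe set for each of 3057 genes, 105 genes (3.43%) were higher in F344 and 251 (8.21%) lower, and without ACI 2 and ACI 5 136 genes (4.45%) passed, 57 (1.86%) higher and 79 (2.58%) lower.

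Lower calls outnumbered higher ones in the dim and middle classes of signal and not in the bright one. Divided into 3 equal classes by signal, in the dimmest class 47 were higher and 186 lower, and the median log2 change was -0.23, or -0.09 without ACI 2 and ACI 5. In the middle class 63 were higher and 166 lower (median -0.11), and in the brightest 97 were higher and 62 lower. The median log2 change of all tested probe sets was -0.07 with the deposited scaling, and it moved by 0.07 under quantile normalization and by 0.12 under median centring. With these scalings 50.4% and 58.8% of calls were higher in F344, against 33.3% with the deposited scaling. 

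**Figure D1:**
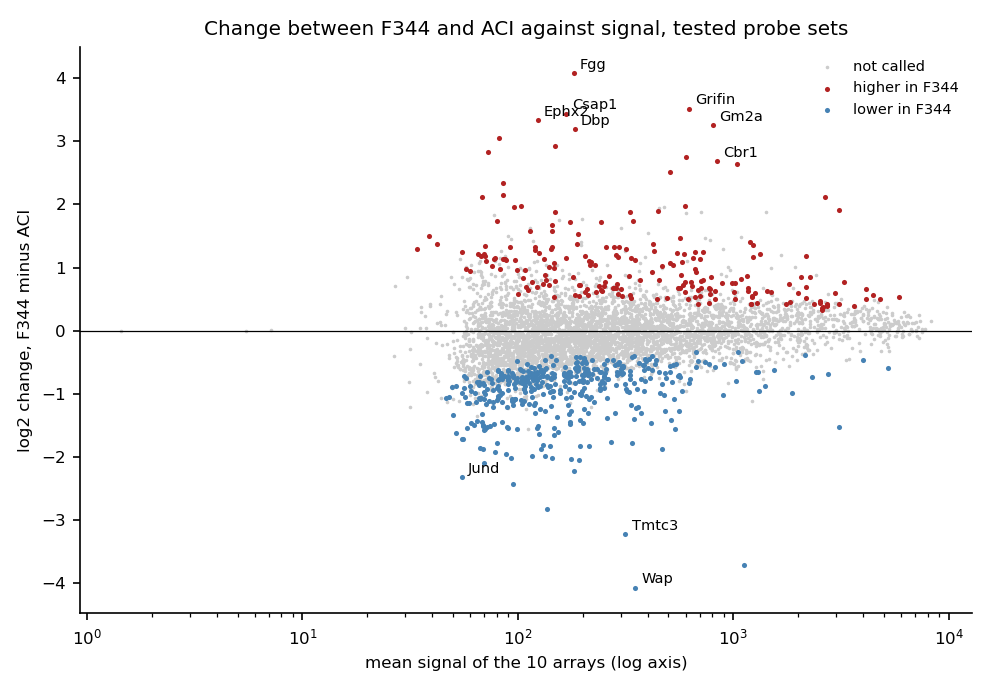
Log2 change (F344 minus ACI, vertical axis) against the mean signal of the 10 arrays (log axis) for the 5049 tested probe sets. Red points (207) passed the test as higher in F344, blue points (414) as lower, grey points did not pass. The fitted changes of Fgg, at 4.09, and Wap, at -4.07, mark the ends of the range.

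Wap and 4 casein genes were lower in F344 glands. These were 5 of the 10 milk genes tested, where 8.21% of all genes were called lower, and 0 of the 10 were higher. The list had 3 positive and 7 negative changes, with a median log2 change of -0.34, against -0.09 for all 3057 genes. Caseins and whey acidic protein make up most of the protein of rodent milk. Without ACI 2 and ACI 5, 2 of the 5 still passed, which were Wap and Csn3, where 2.58% of all genes were called lower. The list and its members were picked with earlier results from these arrays in view.

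Wap encodes whey acidic protein, the major whey protein of rodents. Its signals were 39.3, 49.4, 33.1, 28.8 and 25.7 on F344 arrays 1 to 5, against 1081, 1049, 252, 419 and 531 on ACI arrays 1 to 5. Every F344 array was below every ACI array, with a log2 change of -4.07 ± 0.72 (SE) and an adjusted p of 0.000251. Without ACI 2 and ACI 5 it was -3.82 with an adjusted p of 0.00618. The ACI signals themselves spread more than 4-fold, and the lowest of them was ACI 3.

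Csn2, beta-casein, had signals of 572, 153, 33.7, 40.7 and 78.9 in F344, against 4095, 2485, 174, 2831 and 708 in ACI. Its log2 change was -3.70 ± 0.97 (adjusted p = 0.0123), but the groups overlapped, since ACI 3 was below F344 1. Without ACI 2 and ACI 5 its change was -3.67 with an adjusted p of 0.0616, which did not pass.
Csn3, kappa-casein, which keeps the casein micelle in solution, had signals of 2699, 2620.3, 686, 1344 and 1198 in F344, against 6761, 4195, 3508, 4909.8 and 3086 in ACI. There was no overlap, and the log2 change was -1.52 ± 0.42 (adjusted p = 0.0182; 0.0466 without ACI 2 and ACI 5), though it did not pass without F344 3.
Csn1s2a, an alpha-S2-type casein, lay near the floor of 18.1 in F344, with 28.0, 7.6, 17.5, 14.5 and 16.2, against 609, 213, 20.2, 379 and 54.1 in ACI. ACI 3 was again the lowest of its group, here below F344 1, and the change of -2.83 ± 0.89 had an adjusted p of 0.0351, or 0.0901 without ACI 2 and ACI 5.
Csn1s1, alpha-S1-casein, changed least of the 5, with 3747 to 4740.0 in F344 against 5023 to 6988 in ACI. Its log2 change was -0.58 ± 0.19 (adjusted p = 0.0371, or 0.249 without ACI 2 and ACI 5).

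The other 5 milk genes did not pass. Lalba, alpha-lactalbumin, the regulator of lactose synthesis, had 1977 to 2403 in F344 against 1344 to 2847 in ACI. Mfge8, Muc1, Xdh and Glycam1, which encode proteins of the milk fat globule and a mucin-like milk protein, had log2 changes between -0.10 and 0.27. Of 12 tested markers of luminal epithelium 0 passed in either direction in limma, 0 had an unadjusted p below 0.05, and their summed signal was 6070 to 8730 in F344 and 5890 to 7750 in ACI. Krt18, a luminal keratin, averaged 1018 ± 123 in F344 and 1021 ± 171 in ACI (SD, n = 5 each). Krt14, a basal keratin, averaged 748 ± 191 in F344 and 769.9 ± 409.9 in ACI, with a log2 change of 0.08 ± 0.33 (adjusted p = 0.898). Among 14 myoepithelial and smooth muscle markers 1 passed as lower, near the 8.21% of all genes, and 0 passed as higher. The 1 marker was Actg2, smooth muscle gamma-actin, with 356, 254, 227, 336 and 201 in F344 against 874, 698, 621, 866 and 919.7 in ACI (log2 change -1.55 ± 0.21, adjusted p = 5.64e-06).

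Promoter stretches of the 3 caseins whose sequence held the letters TTCNNNGAA, the core read by Stat5, which carries the prolactin signal to casein genes, are shown because these genes fell together. The letters are in capitals. They were searched for in the 250 bases before each gene's start, where the motif reads alike on both strands, in the RefSeq promoters of GRCr8. The 3 were Csn1s1 (chr14:20638901-20638989 on the minus strand), Csn1s2a (chr14:20574525-20574613 on the minus strand) and Csn2 (chr14:20601687-20601775 on the plus strand).
Csn1s1: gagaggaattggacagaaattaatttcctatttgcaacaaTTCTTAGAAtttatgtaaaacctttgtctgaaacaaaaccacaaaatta
Csn1s2a: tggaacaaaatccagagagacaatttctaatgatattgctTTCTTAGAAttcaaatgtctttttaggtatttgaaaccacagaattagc
Csn2: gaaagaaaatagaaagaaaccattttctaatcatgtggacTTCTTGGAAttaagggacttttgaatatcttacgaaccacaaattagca
The capitals begin 100 bases before the gene's start in Csn1s1, 102 in Csn1s2a and 97 in Csn2. The letters were present for 3 of the 5 milk genes that fell and for 1 of the 5 that did not pass (Glycam1), against 7.67% of 33469 promoters. Csn3 and Wap, the 2 milk genes that passed without ACI 2 and ACI 5, did not hold them in this window. The 3 caseins that held them did not pass without those arrays.

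Of 17 tested genes of the cell division cycle, 9 fell in F344 (8.21% of all genes were called lower) and 0 rose. All 17 had a negative log2 change, with a median of -0.93. Without ACI 2 and ACI 5, 8 were called lower (7 of the 9, and Fen1, a nuclease of DNA replication), against 2.58% of all genes. The median was then -1.14, and 16 of 17 changes were negative, Ccne1 being the exception at 0.04. Summed signal of the list was 3080 to 4230 in F344 and 4380 to 8240 in ACI.

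Top2a, the topoisomerase that untangles replicated chromosomes, had signals of 123, 93.6, 159.6, 148 and 84.2 in F344 against 570.1, 329, 327, 611 and 273 in ACI. The groups did not overlap, and the log2 change was -1.76 ± 0.45 (adjusted p = 0.011, or 0.0223 without ACI 2 and ACI 5). Within ACI the high arrays were ACI 1 and ACI 4.
Cdk1, the kinase that starts mitosis, had 39.6, 36.8, 75.4, 43.0 and 35.5 in F344 against 159, 107, 117, 189 and 95.3 in ACI, with a change of -1.55 ± 0.40 (adjusted p = 0.0123).
Pttg1, securin, which holds sister chromatids together until anaphase, had 86.1, 68.4, 139.9, 93.7 and 79.0 in F344 against 266, 287, 196, 288 and 235 in ACI, with a change of -1.48 ± 0.26 (adjusted p = 0.000286). Both genes kept separate ranges, and F344 3 was the highest F344 array in both.

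The helicase subunits that open replication origins moved the same way. Mcm5 had 35.3, 34.5, 52.7, 40.2 and 26.0 in F344 against 92.6, 125, 81.0, 109 and 126 in ACI (log2 change -1.52 ± 0.31, adjusted p = 0.00133). Mcm6 had 151, 147, 324, 213 and 180.4 in F344 against 617, 306, 484, 852 and 240.4 in ACI, where F344 3 was above ACI 2 and ACI 5 (log2 change -1.22 ± 0.34, adjusted p = 0.0182). Mcm7 ranged over 213 to 279 in F344 and 375 to 606 in ACI, without overlap (log2 change -0.92 ± 0.22, adjusted p = 0.00508). All 3 passed again without ACI 2 and ACI 5, at adjusted p of 0.0245, 0.00369 and 0.0135.

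Stmn1, a microtubule-destabilising protein, Plk1, a mitotic kinase, and Ccnb1, the cyclin partner of Cdk1, completed the 9, with log2 changes of -1.27, -0.95 and -0.89 and adjusted p of 0.0333, 0.00771 and 0.0483. Plk1 and Ccnb1 did not pass without ACI 2 and ACI 5 (0.0679 and 0.0549). The 8 that did not pass included Pcna, the sliding clamp of DNA replication, with 837 to 1167 in F344 against 616 to 2013 in ACI. Ccnd1, the cyclin of the early growth response to hormones, averaged 822 ± 244 in F344 and 1238 ± 399 in ACI (SD, n = 5 each), with a change of -0.58 ± 0.24 and an adjusted p of 0.107 on the probe set of highest mean signal. Others of its probe sets gave -0.76 (adjusted p = 0.0263) and -0.61 (adjusted p = 0.0392).

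Cdk1 and the 3 Mcm genes held an E2F-type sequence in the 250 bases before their starts, and these stretches are shown because E2F factors switch such genes on before DNA synthesis. Capitals mark TTTCGCGC or TTTGGCGC, searched on both strands, and in Mcm5 and Mcm6 2 overlapping matches on opposite strands form 1 run. The stretches are Cdk1 (chr20:19265120-19265207 on the plus strand), Mcm5 (chr19:13488563-13488651 on the plus strand), Mcm6 (chr13:42404440-42404531 on the minus strand) and Mcm7 (chr12:22163183-22163270 on the minus strand).
Cdk1: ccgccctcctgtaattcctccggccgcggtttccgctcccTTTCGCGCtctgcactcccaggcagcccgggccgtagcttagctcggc
Mcm5: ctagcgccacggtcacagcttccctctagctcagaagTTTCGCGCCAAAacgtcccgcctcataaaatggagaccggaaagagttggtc
Mcm6: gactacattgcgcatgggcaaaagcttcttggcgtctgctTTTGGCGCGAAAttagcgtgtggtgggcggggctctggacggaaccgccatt
Mcm7: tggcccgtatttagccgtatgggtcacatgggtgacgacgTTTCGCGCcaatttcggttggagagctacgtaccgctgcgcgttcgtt
Such letters stood before 5 of the 9 genes that fell (these 4 and Stmn1), before 0 of the 8 that did not pass, and before 0.636% of all promoters. TTTGAA, the letters of a form of the CHR element, which holds down mitotic genes in resting cells, stood before 3 of the 9 (Cdk1, Pttg1 and Top2a) and 2 of the 8 (Cdc20 and Hmgb2), against 16.2% of all. A match describes the sequence and says nothing of binding.

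Of 9 circadian clock and output genes tested, 5 were higher in F344 and 0 lower, where 3.43% of all genes were called higher. The median log2 change of the 9 was 1.15, with 7 positive and 2 negative. All 5 passed again without ACI 2 and ACI 5, where 1.86% of all genes were called higher. Dbp, Per2, Bhlhe40, Bhlhe41 and Nr1d2 passed. Dbp is a transcription factor driven by the clock, Per2, Bhlhe40 and Bhlhe41 repress the clock's own activators, and Nr1d2 is a nuclear receptor that feeds back on it. The hour at which glands were taken is not given, so a difference between strains and one between hours cannot be told apart.

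Dbp had 1147, 999.6, 1004, 803 and 1069 in F344, against 359, 164, 213, 253 and 22.7 in ACI, on 1 probe set (log2 change 2.75 ± 0.41, adjusted p = 2.49e-05). ACI 5 was far below its group there, and without ACI 2 and ACI 5 the change was 1.89 (adjusted p = 2.12e-06). A second probe set gave 3.19 ± 0.30 (adjusted p = 8.07e-09).
Per2 had 138, 121, 171, 118 and 139 in F344, against 63.3, 12.3, 39.5, 33.9 and 13.8 in ACI. The ranges were apart, with 2 ACI signals under the floor, and the change was 2.14 ± 0.36 (adjusted p = 0.000108; 0.00796 without ACI 2 and ACI 5).
Bhlhe41 had 945, 803, 1037, 933 and 772 in F344, against 466, 328, 363, 411 and 460.3 in ACI (log2 change 1.15 ± 0.15, adjusted p = 3.15e-06).
Bhlhe40 had 182, 228, 129, 154 and 161 in F344, against 67.5, 78.7, 50.3, 51.3 and 96.5 in ACI (log2 change 1.33 ± 0.23, adjusted p = 0.000241). Both had separate ranges in the strains.
Nr1d2 ranged over 326 to 568 in F344 and 93.0 to 239.7 in ACI (log2 change 1.30 ± 0.37, adjusted p = 0.0192).

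Its relative Nr1d1, also a repressor of the clock, did not pass on either probe set, with log2 changes of 0.34 ± 0.30 (adjusted p = 0.47) and 0.39 ± 0.29 (adjusted p = 0.395). Tef and Hlf, which belong to the same family as Dbp, had changes of -0.11 ± 0.20 (adjusted p = 0.745) and -0.69 ± 0.34 (adjusted p = 0.179). Csnk1d, a kinase of the Per proteins, had 0.17 ± 0.22 (adjusted p = 0.657).

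Promoters of 3 of the 5 clock genes held a clock motif, and they are shown to place it. Capitals mark the E-box CACGTG, read by the clock's activators, in Bhlhe40 (chr4:143174200-143174275 on the plus strand) and Bhlhe41 (chr4:180569358-180569443 on the minus strand), and the D-box TTATGTAA, read by Dbp and its relatives, in Per2 (chr9:99497138-99497225 on the minus strand). Both strands of the 250 bases before the start were searched.
Bhlhe40: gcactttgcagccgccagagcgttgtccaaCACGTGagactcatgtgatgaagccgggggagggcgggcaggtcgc
Bhlhe41: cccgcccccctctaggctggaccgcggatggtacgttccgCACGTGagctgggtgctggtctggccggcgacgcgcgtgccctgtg
Per2: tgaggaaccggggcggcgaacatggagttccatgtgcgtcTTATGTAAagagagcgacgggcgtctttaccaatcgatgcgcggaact
The E-box began 220 bases before the start of Bhlhe40 and 48 before that of Bhlhe41, and the D-box 192 before that of Per2. An E-box was found for 2 of the 5 genes that rose and for both genes with a promoter in the table (Nr1d1 and Tef) among the 4 that did not pass, against 5.59% of all promoters. The D-box was found for 1 of the 5 and 0.828% of all.

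**Figure D2:**
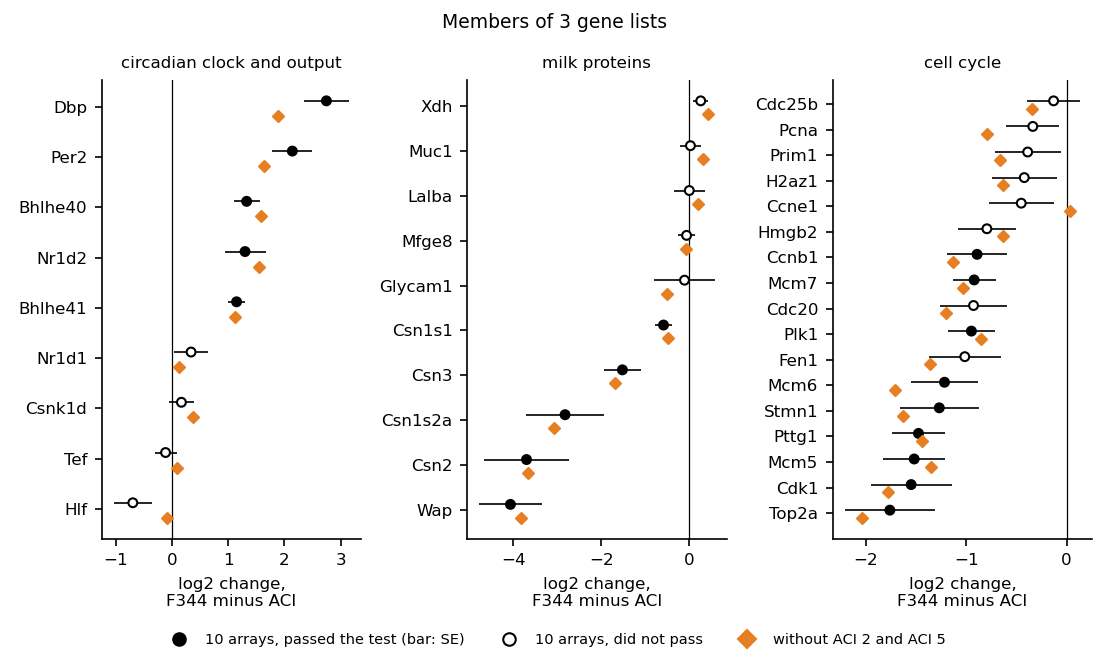
Log2 change (F344 minus ACI) of each tested gene of 3 lists. Circles with SE bars are the fit with all 10 arrays, filled where the gene passed the test, and orange diamonds leave out ACI 2 and ACI 5. The 5 filled clock genes lie right of 0 and the 5 filled milk genes and 9 filled cell cycle genes left of it, with or without those arrays.

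Across all genes 11.6% passed in either direction. Of 20 tested genes of prolactin, growth hormone and insulin-like growth factor signalling, 0 passed in limma in either direction, and 3 had an unadjusted p below 0.05. Prlr, the prolactin receptor, averaged 592 ± 82.8 in F344 and 685 ± 83.7 in ACI (SD, n = 5 each; log2 change -0.21 ± 0.22, adjusted p = 0.551). Igf1 averaged 1817 ± 168 in F344 and 1765 ± 191 in ACI (log2 change 0.04 ± 0.15). Pgr, the progesterone receptor, had 67.0, 55.5, 98.4, 109 and 96.9 in F344 against 79.4, 193, 179, 80.9 and 189.6 in ACI (log2 change -0.69 ± 0.38, adjusted p = 0.229), and the groups overlapped. Esr1, the oestrogen receptor alpha, was too dim to be tested.

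Of 11 tested genes of oestrogen and progesterone signalling, 2 were lower in F344 and 0 higher, where 8.21% of all genes were called lower. Esr2, the oestrogen receptor beta, had 76.4, 42.3, 52.3, 81.5 and 55.4 in F344 against 95.9, 171, 109.8, 91.5 and 196 in ACI (log2 change -1.08 ± 0.25, adjusted p = 0.00512). Tff3, a trefoil peptide that oestrogen induces in human breast cancer cells, ranged over 45.9 to 68.4 in F344 and 95.8 to 189.6 in ACI (log2 change -1.09 ± 0.30, adjusted p = 0.0173). Neither passed without ACI 2 and ACI 5, at adjusted p of 0.12 and 0.146. Tnfrsf11b, osteoprotegerin, the decoy receptor that binds RANKL, the factor by which progesterone makes neighbouring cells divide in mice, was lower in F344, with 181, 159.9, 141, 141 and 144 against 638, 454, 468, 569 and 502 in ACI. Its ranges were far apart, and the change was -1.78 ± 0.16 (adjusted p = 3.15e-09; 1.02e-07 without ACI 2 and ACI 5).

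Of 38 tested enzymes that handle foreign compounds, 7 rose in F344 and 0 fell, where 3.43% of all genes were called higher. The median log2 change was 0.24, with 24 positive and 14 negative. Without ACI 2 and ACI 5, 4 rose, which were Gstt2, Cbr1, Ephx1 and Akr1c3, against 1.86% of all genes. Gstt2, a glutathione transferase, had 711, 523, 438, 487 and 464 in F344 against 151, 132, 144, 132 and 235 in ACI (log2 change 1.74 ± 0.18, adjusted p = 7.23e-08). Cbr1, a carbonyl reductase, had 1593, 2091, 1504, 1065 and 2713 in F344 against 332, 209, 308, 413 and 177 in ACI (log2 change 2.64 ± 0.31, adjusted p = 9.92e-07). A second probe set of Cbr1 gave 2.69. The F344 signals of Cbr1 spread more than 2-fold, and each was above every ACI array.
Ephx1, microsomal epoxide hydrolase, had 852, 811, 769, 879 and 803 in F344 against 329, 247, 393, 341 and 208 in ACI (log2 change 1.47 ± 0.24, adjusted p = 7.98e-05). Akr1c3, an aldo-keto reductase, ranged over 443 to 709 in F344 and 151 to 361 in ACI (log2 change 1.27 ± 0.28, adjusted p = 0.00266). Gsto1, a glutathione transferase, Cyp2b2, a cytochrome P450, and Por, which passes electrons to such enzymes, had changes of 0.63, 1.18 and 0.55 and adjusted p of 0.0122, 0.0438 and 0.0133, and did not pass without ACI 2 and ACI 5.

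Ephx2, soluble epoxide hydrolase, which breaks down epoxides of fatty acids, was among the genes with the largest rise. On its probe set with the largest change it had 325, 193, 182, 235 and 211 in F344, against 11, 9.5, 49.6, 11.5 and 10.2 in ACI. ACI 3 was the 1 ACI array above the floor, and the log2 change was 3.34 ± 0.43 (adjusted p = 3.15e-06). A second probe set was under the floor on all 5 ACI arrays and was at least 8.32-fold higher in F344, and another gave 2.84 ± 0.26 (adjusted p = 4.04e-09). The fourth had 343 to 473 in F344 and 180.1 to 282 in ACI, without overlap, and did not pass (log2 change 0.88 ± 0.37, adjusted p = 0.106).

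Genes of energy use in mitochondria gave 4 rises of 38 tested and 0 falls, where 3.43% of all genes were called higher. In the fit without ACI 2 and ACI 5, 2 rose and 1 fell, Decr1, a reductase of unsaturated fatty acid oxidation, at -0.56 (adjusted p = 0.0367, against 0.264 with all arrays). That fit called 1.86% of all genes higher and 2.58% lower. Acaa2, the thiolase that ends each round of fatty acid beta oxidation, had 1978, 2168, 1257, 1845 and 1995 in F344 against 753, 655, 708, 1086 and 779.6 in ACI (log2 change 1.21 ± 0.20, adjusted p = 7.45e-05). Ech1, Acadl and Ndufa5 had changes of 0.50, 0.71 and 0.68, and of these Ech1 passed without ACI 2 and ACI 5 (adjusted p = 0.0417) while Acadl (0.133) and Ndufa5 (0.366) did not. Skeletal muscle genes also had a positive median, 0.72 over 25 tested, with 20 of 25 positive, but 0 rose and 1 (Chrna1) fell, which did not pass without ACI 2 and ACI 5 (adjusted p = 0.132), and 11 more were too dim to be tested. Their summed signal was 6750 to 31400 in F344 and 4080 to 16300 in ACI. Ckm, muscle creatine kinase, had 846, 2515, 1611, 2533 and 4094 in F344 against 1296, 1605, 1010.2, 751 and 348 in ACI (log2 change 1.20 ± 0.99, adjusted p = 0.447). The part of muscle in the mitochondrial rises was not tested.

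Of 18 white adipocyte genes 1 was called higher in F344, near the 3.43% of all genes. Without ACI 2 and ACI 5, 2 were, where Fabp4, a fatty acid carrier, joined it (adjusted p = 0.0457), against 1.86% of all genes. The 1 gene was Pparg, the regulator of fat cell formation, with 900.0, 875, 888, 615 and 792 in F344 against 368, 307, 492, 436 and 211 in ACI (log2 change 1.21 ± 0.24, adjusted p = 0.000922). Plin1, the coat protein of the fat droplet, averaged 222 ± 24.0 in F344 and 255 ± 32.2 in ACI (SD, n = 5 each; adjusted p = 0.584). In the list for fatty acid and sterol synthesis, 3 of 24 genes fell and 0 rose, near the 8.21% of all genes called lower. Sqle, squalene epoxidase, was at 120.1 to 181 in F344 and 198 to 309 in ACI (log2 change -0.91 ± 0.19, adjusted p = 0.00187). The other two, Acat2 and Scd2, had changes of -0.59 and -0.79 and did not pass without ACI 2 and ACI 5. Acaca, acetyl-CoA carboxylase, had 146 to 508 in F344 and 147 to 252 in ACI (log2 change 0.38 ± 0.28, adjusted p = 0.373).
Glul, glutamine synthetase, 1 of 2 risen genes among 9 glucocorticoid targets, had 2893, 3831, 2405, 3026 and 3019 in F344 against 1461, 1249, 1115, 1623 and 1182 in ACI (log2 change 1.19 ± 0.16, adjusted p = 7.95e-06). The second was Cebpd, a transcription factor of inflammation, with 0.77 (adjusted p = 0.018, or 0.0603 without ACI 2 and ACI 5). Of all genes 3.43% were called higher. The 9 targets had 6 positive and 3 negative changes, with a median log2 change of 0.48. Glul was the 1 target that passed without ACI 2 and ACI 5, where 1.86% of all genes were called higher.

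Class II genes of the major histocompatibility complex, which present peptides to helper T cells, gave 3 rises of 8 tested and 0 falls, with or without ACI 2 and ACI 5. The share of all genes called higher was 3.43%, or 1.86% without those arrays. RT1-Ba had 1639, 2432, 1408, 1849 and 1567 in F344 against 484, 748, 639.8, 681 and 921 in ACI (log2 change 1.36 ± 0.24, adjusted p = 0.000325). RT1-Db1 had 1737, 1676, 1551, 2093 and 1439 in F344 against 829, 300.0, 1008, 651 and 637 in ACI (log2 change 1.41 ± 0.28, adjusted p = 0.00102), and its other probe set gave 1.88. RT1-DMb, which helps load peptides, ranged over 609 to 766 in F344 and 224 to 438 in ACI (log2 change 1.07 ± 0.22, adjusted p = 0.00181).

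These genes are polymorphic members of a family, and probe sets of a gene differed. Another probe set of RT1-Ba was called the other way, at -0.78 (adjusted p = 0.0237), the 1 tested gene with calls in opposite directions between these strains. That lower call was lost without ACI 2 and ACI 5 (-0.50, adjusted p = 0.286), under quantile normalization, and on leaving out F344 3, F344 5, ACI 2 or ACI 5 alone. The remaining RT1-Ba probe set had a change of 0.905 and did not pass (adjusted p = 0.0642). Of 232 called probe sets whose gene had another tested one, 81 had another called in the same direction and 149 had none called. Cd74, the invariant chain that class II needs, averaged 2911 ± 473 in F344 and 2457 ± 981 in ACI (SD, n = 5 each; adjusted p = 0.363) on its probe set of highest mean signal. Another Cd74 probe set was called higher in F344, at 0.745 (adjusted p = 0.0314), and did not pass without ACI 2 and ACI 5 (0.615). The rest of the Cd74 probe sets did not pass. Macrophage markers gave 2 rises of 9 tested, Aif1 and Lyz2, where 3.43% of all genes were called higher. Summed signal of the list was 10300 to 12100 in F344 against 7080 to 9860 in ACI. Aif1 had 340.3 to 492 in F344 and 168 to 337 in ACI. Neither gene passed without ACI 2 and ACI 5 (adjusted p = 0.286 and 0.32), while Clec10a, a lectin, then did (0.0416). That made 1 rise of 9, against 1.86% of all genes called higher without those arrays. The part of such cells in the class II rises was not tested.

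Among 15 class I and antigen processing genes 1 rose and 1 fell, near the 3.43% and 8.21% of all genes. Without ACI 2 and ACI 5, 0 rose and 1 fell, against 1.86% and 2.58% of all genes. These counts use the probe set of highest mean signal, on which RT1-S3 did not pass (0.515, adjusted p = 0.095). Its other probe sets were called higher in F344, at 1.255 (adjusted p = 0.0012) and 0.708 (adjusted p = 0.0485). Without ACI 2 and ACI 5 the former passed again (0.0225) and the latter did not (0.0604). Tap2, a subunit of the peptide transporter that feeds class I, fell to 88.5, 96.3, 124, 109 and 93.8 in F344, against 220.4, 303, 292, 176 and 254 in ACI (log2 change -1.27 ± 0.20, adjusted p = 5.31e-05). RT1-CE12 had 0.40 (adjusted p = 0.0248) and did not pass without ACI 2 and ACI 5 (0.242) or under quantile normalization, and B2m, the shared light chain, averaged 3864 ± 249.9 in F344 and 3817 ± 355 in ACI (SD, n = 5 each; adjusted p = 0.929).

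Of 5 tested red cell genes 3 were higher in F344 and 1 lower, and the same counts were found without ACI 2 and ACI 5. The shares of all genes called higher and lower were 3.43% and 8.21%, or 1.86% and 2.58% without those arrays. Hbb, a beta-globin, had 6033, 3785, 4435, 4451 and 3070.3 in F344 against 1045, 1113, 1161, 824 and 785 in ACI (log2 change 2.13 ± 0.25, adjusted p = 6.81e-07), and Hbb-b1 ranged over 1226 to 2421 in F344 and 610.4 to 886 in ACI (log2 change 1.16 ± 0.22, adjusted p = 0.000516). Alas2, the red cell enzyme of haem synthesis, had 0.72 (adjusted p = 0.0316) and did not pass in the fit of the F344 and ACI arrays alone, nor without F344 1, F344 4, ACI 1, ACI 2 or ACI 3. Slc4a1, the red cell anion exchanger, had -0.50 and did not pass (adjusted p = 0.0804). Hba-a3, an alpha-globin on 1 probe set, was lower, with 25, 25.4, 28.6, 10.4 and 19.4 in F344 against 70.7, 246, 102, 39.4 and 133 in ACI (log2 change -2.10 ± 0.32, adjusted p = 4.13e-05). Globin copies are near-identical, so which copy a probe set reads is uncertain. Summed signal of the red cell list was 4610 to 8980 in F344 and 1770 to 2650 in ACI. The part of residual blood was not tested.

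Several single genes, some of them members of the lists, gave large contrasts. Fgg, the gamma chain of fibrinogen, had 569, 573, 134, 279 and 226 in F344, against 1.2, 3.9, 5.4, 8.5 and 13.1 in ACI. All 5 ACI signals were under the floor of 18.1, so Fgg was at least 17.0-fold higher in F344 (adjusted p = 1.40e-05). Another probe set of Fgg had 50.0 to 133 in F344 and 18.3 to 97.9 in ACI and did not pass (log2 change 0.93 ± 0.46, adjusted p = 0.18).
Grifin, a galectin relative known from the lens of the eye, had 1412, 1283, 1076, 904 and 1052 in F344, against 102, 123, 95.9, 82.2 and 94.4 in ACI. Its log2 change of 3.52 ± 0.19 had the smallest adjusted p of the 30 genes ranked by change, 4.70e-14.
Gm2a, the lysosomal activator that presents a ganglioside to its enzyme, had 1449, 1116, 1397, 1638 and 1457 in F344, against 153, 142, 340.1, 289 and 31.2 in ACI (log2 change 3.26 ± 0.48, adjusted p = 2.42e-05). ACI 5 was the lowest of its group, and the change was 2.51 without ACI 2 and ACI 5.
Ccng1, cyclin G1, a target of p53, had 870.1, 864, 1019, 865 and 1116 in F344, against 268, 217, 347, 289.8 and 132 in ACI (log2 change 1.98 ± 0.24, adjusted p = 1.75e-06).
Gadd45a, a stress gene also under p53, ranged over 433 to 709.5 in F344 and 274 to 296 in ACI (log2 change 0.93 ± 0.19, adjusted p = 0.00133), and its other 3 tested probe sets were also called higher in F344. Ccng1 and Gadd45a were the 2 risen genes of 15 tested p53 targets and apoptosis genes, where 3.43% of all genes were called higher. In that list 1 gene, Bak1, fell, and 6 changes were positive and 9 negative, with a median log2 change of -0.10. Signals of Fgg, Grifin, Gm2a and Ccng1 did not overlap between the strains on the ranked probe sets, as the choice of genes required. On the other Fgg probe set they overlapped. Gadd45a, chosen from a list, also had separate ranges.

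Paqr3, a Golgi protein that tethers Raf, Spock2, a matrix proteoglycan, and S100a1, a calcium-binding protein of muscle, had log2 changes of 1.90 ± 0.28, 2.11 ± 0.27 and 2.33 ± 0.34. Of the S100a1 probe sets, the 3 others gave 0.48, 0.43 and 0.06 and did not pass. Csap1, common salivary protein 1, spread widely, with 152, 103, 307, 901 and 129.9 in F344 against 14.6, 6.4, 7.8, 13.6 and 34.6 in ACI (log2 change 3.44 ± 1.08, adjusted p = 0.0344), and did not pass without ACI 2 and ACI 5 (0.11). Errfi1, the feedback inhibitor of ErbB receptors, averaged 237 ± 120.0 in F344 and 61.3 ± 26.5 in ACI (SD, n = 5 each) (log2 change 1.88 ± 0.60, adjusted p = 0.0371), and likewise did not pass (0.174).

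Of genes lower in F344, Tmtc3, a glycosyltransferase of the endoplasmic reticulum, had 73.6, 57.2, 54.7, 51.3 and 55.4 in F344, against 658, 754, 378, 346 and 725 in ACI (log2 change -3.23 ± 0.25, adjusted p = 1.10e-10). Kif13a, a kinesin motor, had 75.8, 78.3, 71.7, 74.6 and 72.4 in F344, against 321, 259, 326, 297 and 339 in ACI (log2 change -2.04 ± 0.15, adjusted p = 5.32e-11). The 5 arrays of each strain lay close together for Kif13a, and further apart for Tmtc3 in ACI.
Jund, a subunit of the transcription factor AP-1, had 8.6, 9.1, 20.3, 13.7 and 18.4 in F344, against 96.8, 117, 129.8, 69.8 and 66.4 in ACI (log2 change -2.32 ± 0.36, adjusted p = 4.44e-05). On 3 of the 5 F344 arrays the signal was under the floor.
Among 24 tested immediate early genes 1 rose and 3 fell (1 and 1 without ACI 2 and ACI 5), near the 3.43% and 8.21% of all genes, and Egr2, a zinc finger factor, overlapped between the strains, with 64.7 to 619 in F344 and 414 to 989 in ACI (adjusted p = 0.0237, or 0.0892 without ACI 2 and ACI 5).
Bmp3, a bone morphogenetic protein that opposes others of its family, had 50.6, 31.0, 46.9, 24.1 and 32.2 in F344, against 123, 135, 126, 135 and 178 in ACI (log2 change -1.96 ± 0.27, adjusted p = 7.74e-06). Nr2f1, the orphan nuclear receptor COUP-TFI, had 88.0, 101, 104, 102 and 71.3 in F344, against 302, 414, 234, 358 and 353 in ACI (log2 change -1.82 ± 0.21, adjusted p = 3.65e-07). Both had separate ranges.

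Of the other ranked falls, Arg2, the mitochondrial arginase, ranged over 22.9 to 45.1 in F344 and 64.8 to 179.7 in ACI (log2 change -1.91 ± 0.38). Ddah1, which breaks down dimethylarginine, an inhibitor of nitric oxide synthesis, ranged over 69.1 to 113 in F344 and 226 to 380.0 in ACI (log2 change -1.82 ± 0.25). Slc3a1, a subunit of the cystine carrier, and Aadat, a transaminase of lysine and tryptophan breakdown, had changes of -1.99 ± 0.37 and -1.99 ± 0.36. These 4 had adjusted p of 0.000997, 7.91e-06, 0.000558 and 0.000387, and all passed without ACI 2 and ACI 5. The remaining ranked falls were Syt5, a synaptotagmin of vesicle release, at -1.86 ± 0.39, and Smim7, at -1.65 ± 0.21.

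**Figure D3:**
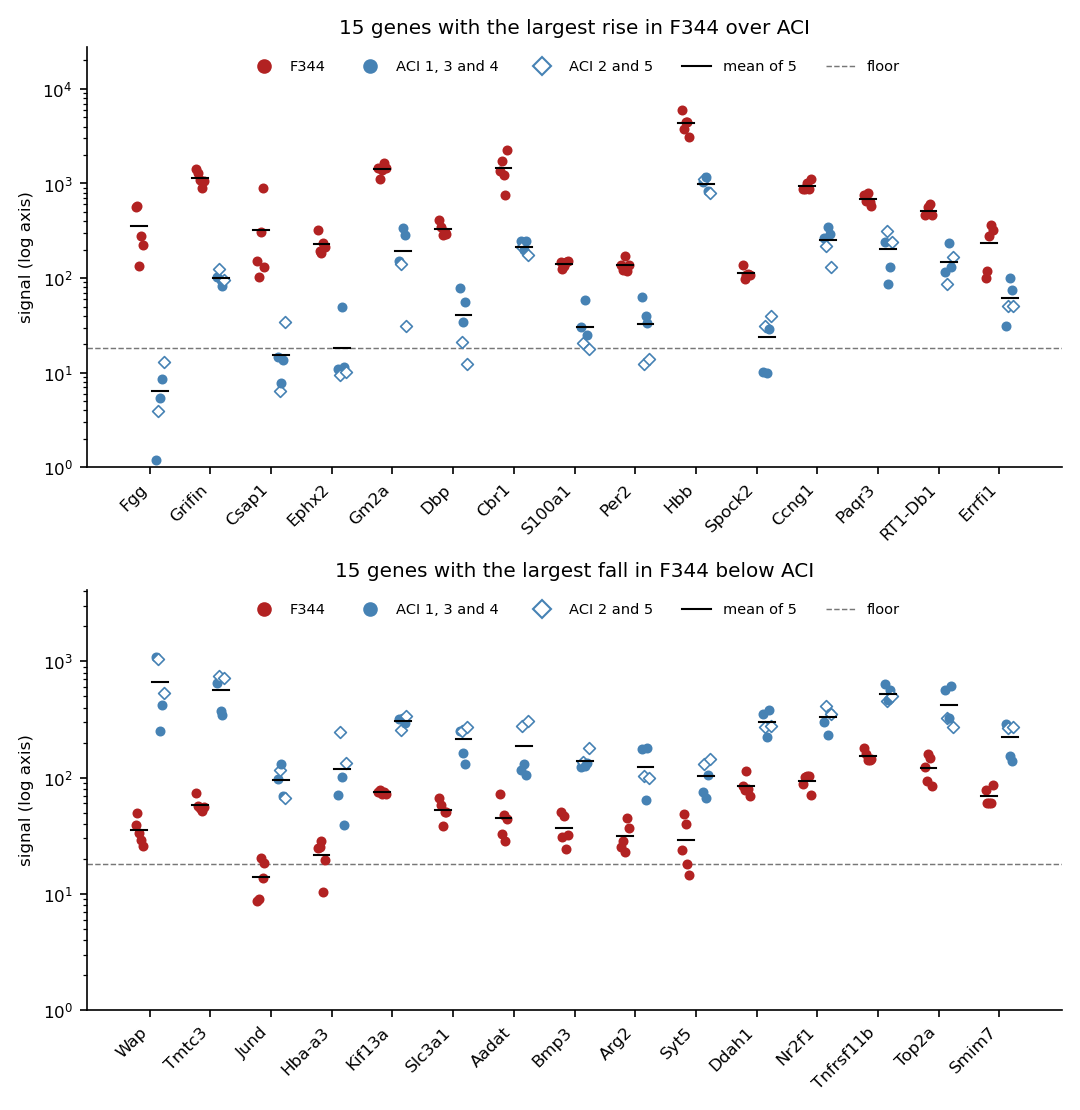
Signal (log axis) of each F344 array (red, left) and each ACI array (blue, right) for the 15 genes with the largest rise and the 15 with the largest fall. Open diamonds are ACI 2 and ACI 5, black bars the mean of 5 arrays and the dashed line the floor of 18.1. Each gene is drawn on its probe set with the largest change, and no gene's groups overlap, as the choice of genes required.

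The same fit places both strains beside the other inbred strains. F344 and ACI were each set against the mean of Cop, BUF/N and WF there, where 10.6% and 7.74% of probe sets passed. Both contrasts share those 15 arrays, so they are given side by side only. For Grifin the F344 contrast passed and the ACI contrast did not, at 3.26 (adjusted p = 1.40e-15) for F344 and -0.26 for ACI (adjusted p = 0.342). Kif13a was alike, at -1.93 for F344 (adjusted p = 6.22e-13) and 0.12 for ACI (adjusted p = 0.598). Paqr3 had 1.87 in F344 (adjusted p = 1.27e-06) and -0.03 in ACI, and Pttg1 had -1.35 in F344 (adjusted p = 9.43e-05) and 0.12 in ACI.

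For Dbp, Per2, Bhlhe40 and Bhlhe41 the ACI contrast passed and the F344 contrast did not. Nr1d2 passed on neither side, at 0.465 for F344 (adjusted p = 0.334) and -0.837 for ACI (adjusted p = 0.082). Dbp, on the second of its probe sets, had 0.25 in F344 (adjusted p = 0.552) and -2.94 in ACI (adjusted p = 4.95e-10). Per2 had 0.21 in F344 and -1.94 in ACI (adjusted p = 4.02e-05), and Bhlhe41 had 0.27 in F344 and -0.88 in ACI (adjusted p = 1.08e-05). Gm2a, Glul, Acaa2, Tnfrsf11b and Smim7 also passed on the ACI side alone, with ACI changes of -2.65, -1.10, -1.27, 1.48 and 1.69, and F344 changes between -0.29 and 0.62. The mean of the 3 strains can hide differences among them. For Gm2a, Cop had a mean of 364, with a range of 252 to 478 that overlapped the ACI range of 31.2 to 340.1, against means of 1674 in BUF/N and 1425 in WF. A pass on one side alone does not show that the sides differ in size, which was not tested.

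Wap, Tmtc3, Jund, Bmp3 and Ddah1 were among the genes that passed on both sides, with F344 below and ACI above the mean of the other strains. Wap had -2.22 in F344 (adjusted p = 0.0129) and 1.85 in ACI (adjusted p = 0.0468), while the 3 other strains spread widely, with means of 19.3 in Cop, 1125 in BUF/N and 399 in WF. Cop's mean for Wap was below the F344 mean of 35.3. Tmtc3 had -2.02 in F344 and 1.20 in ACI. Mcm5 had -0.45 in F344 (adjusted p = 0.263) and 1.07 in ACI (adjusted p = 0.00718), whereas Top2a had -1.18 in F344 (adjusted p = 0.036) and 0.58 in ACI (adjusted p = 0.354).

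**Figure D4:**
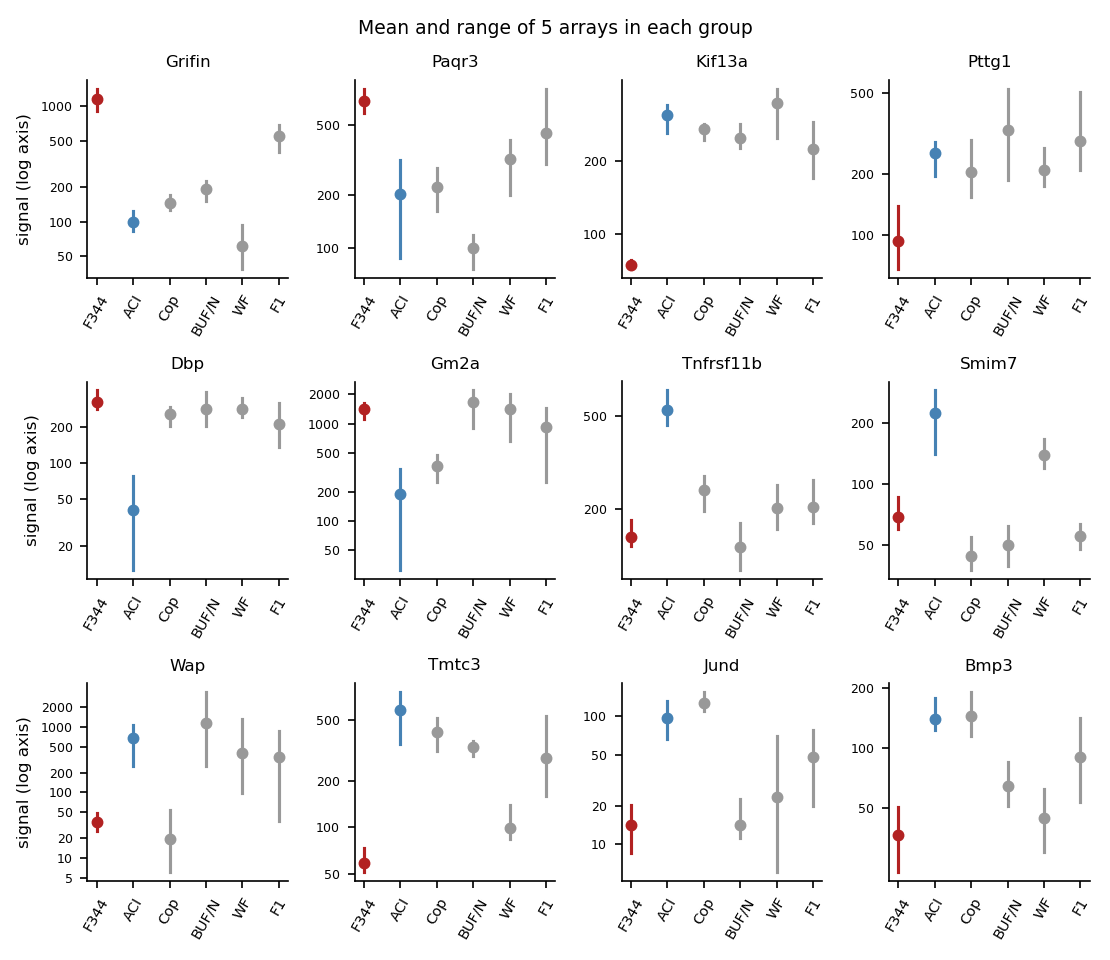
Mean signal (point, log axis) and range (line) of 5 arrays in F344 (red), ACI (blue) and the other groups (grey) for 12 genes. In the top row F344 lies apart from the other inbred strains, in the middle row ACI lies at the edge or beyond them, and in the bottom row F344 and ACI lie toward opposite ends. In that row the mean of Cop lies below F344 for Wap and above ACI for Jund and Bmp3.

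**Figure D5:**
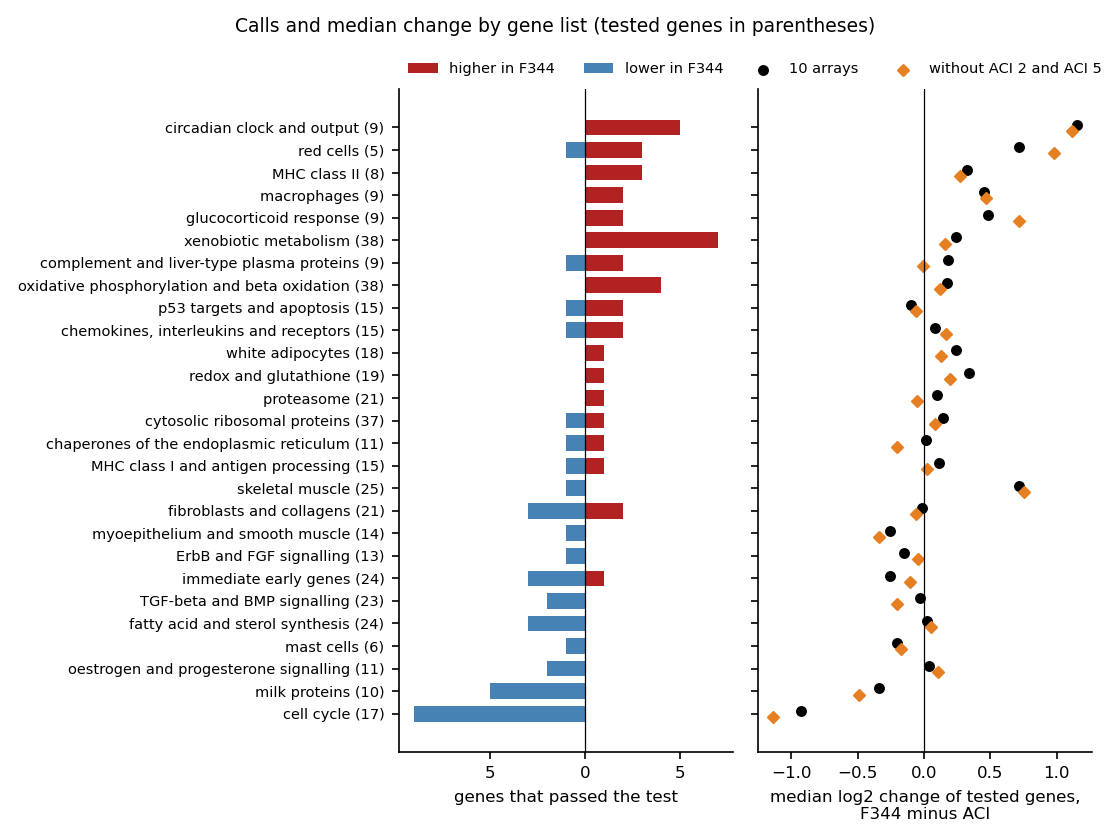
Left, number of tested genes that passed as higher (red) or lower (blue) in F344 for each list with at least 1 call, with the number tested in parentheses. Right, median log2 change of all tested genes of the list, with all 10 arrays (black) and without ACI 2 and ACI 5 (orange). Clock genes lie at the top, with 5 of 9 higher, and cell cycle genes at the bottom, with 9 of 17 lower, against 3.43% and 8.21% of all genes.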

How the data were processed

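Total RNA of normal rat mammary gland was hybridised to Affymetrix arrays with 8799 probe sets. Per the labels, the authors computed the deposited intensity signals with Affymetrix Microarray Suite 5.0, on a linear scale. Gene symbols came from the supplied platform table, updated by gene identifier for 6994 of 7018 probe sets with 1 symbol, while 308 had several and 1473 none. No genome build belongs to the probe sets, so their coordinates are not given. Promoter sequences are RefSeq's for GRCr8.

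Deposited signals under the 25th percentile of the 32 arrays (18.1) were raised to that floor before log2 was taken. Tests covered the 5049 probe sets above the overall median of 78.1 on at least 5 of 30 arrays. The 6 groups of 5 arrays, taken from the titles, were fitted together with limma 3.58.1 in R 4.3.3 (trended variance, 29.58 degrees of freedom), with Benjamini-Hochberg adjustment over all 5049 and a threshold of 0.05. Fold changes are on this floored log2 scale, which understates those of dim genes. Where every array of a strain was under the floor, the fold is a bound. The fit was tested on simulated data. The number of arrays limits the precision.

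Named genes were the 15 largest rises and 15 largest falls that passed without overlap between groups on a probe set with 1 symbol, up to 4 passing members of each of 37 lists on their probe set of highest mean signal, and 18 set genes. A few other list members are named to complete a list. The comparison, the lists and the named genes were chosen with earlier results of these data known. Alternatives changed the floor, the filter, the normalization between arrays, the arrays in the fit, array weights and a block for the replicate number, and left out each array in turn. Same-numbered samples did not deviate together (r from -0.12 to 0.113 over the 5 numbers), so the numbers were not taken to pair samples. The F344 pool was kept out of all tests.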

Additional observations from a re-analysis of the deposited data

Results flagged for a closer look

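In 13 of 202 groups of 5 arrays of named genes (6.44%), 1 array lay so far from the other 4 that the gap exceeded Dixon's limit of 0.71 of the range on the floored log2 scale. Without the floor 10 of the 13 did, and the exceptions were Jund (0.114 of the range), Csn1s2a (0.36) and Csap1 (0.511), whose other arrays lay mostly under the floor. Chance gives about 1 in 20 such groups. ACI 5 was that array in 5 of the 13. Among F344 arrays, Csn1s2a was 28.0 on F344 1, Rps24 428.2 on F344 1, Igf1 2112.3 on F344 2, Jund 20.3 on F344 3, Bmp6 101.5 on F344 3 and Lyz2 3289.8 on F344 4, each above the others, and Gclm was 136.9 on F344 4, below them. Among ACI arrays, Ephx2 was 49.6 on ACI 3, above the others. On ACI 5, Csap1 was 34.6, Bmp3 178.1, Gstt2 235.4 and B2m 4437.9, each above the others, and Dbp was 22.7, below them.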

How the results depend on the processing

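Of 89 named probe sets that passed, 53 passed under each of the 22 alternatives that tested them, and 0 changed direction. The requirement that all 10 arrays exceed the median left 51 of the 89 tested, and of these 29 passed under all 22. Leaving out ACI 2 and ACI 5 lost the most, 29 of 89. The count of 621 probe sets was 242 without ACI 2 and ACI 5 (105 higher in F344, 137 lower), 392 when F1 2 and F1 3 were left out as well (165 and 227), and 313 when all 10 arrays had to exceed the median (128 and 185), where fewer probe sets were tested. Median centring gave 340 higher and 238 lower, quantile normalization 281 and 276, and array weights 345 and 566. Leaving out 1 array at a time gave 323 to 755 in all, 114 to 262 higher and 209 to 493 lower. The arrays that moved the total by over 1.5 times were ACI 2 (323), ACI 5 (362), F344 2 (386) and F344 5 (398). The cause was not tested. With the replicate number as a block the counts were 586, 210 and 376, and 0 named calls were lost. The best-correlated ACI number equalled the F344 number for 0 of the 5. Other floors, an offset in place of the floor, no filter and a fit of the 10 arrays alone kept each count within 1.5 times.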

Other observations

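Several other gene groups held single genes that differed. Over all genes 3.43% were called higher in F344 and 8.21% lower. Among 21 fibroblast and collagen genes 2 were higher and 3 lower in F344. Mmp2, a gelatinase, had 745 to 1186 in F344 against 542 to 677 in ACI (log2 change 0.66 ± 0.17, adjusted p = 0.0126), and its inhibitor Timp2 had a change of 0.44 (adjusted p = 0.0282). Timp1, another inhibitor of such proteases, was lower, with 434 to 660.4 in F344 against 697 to 866 in ACI (adjusted p = 0.0181), as were biglycan (Bgn, -0.47) and fibronectin (Fn1, -0.46). Of these 5, Bgn passed without ACI 2 and ACI 5 (adjusted p = 0.0352).

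Ccl11, eotaxin, which attracts eosinophils, had 50.0, 40.3, 73.4, 63.1 and 67.8 in F344 against 17.0, 25.5, 17.1, 11.1 and 22.7 in ACI (log2 change 1.51 ± 0.29, adjusted p = 0.000799), and ACI was below the mean of Cop, BUF/N and WF (log2 change -2.14, adjusted p = 1.99e-07). Il6st, the shared receptor chain of interleukin 6 and its relatives, had 305 to 419 in F344 against 193 to 267 in ACI (adjusted p = 0.00135). Ccl11 and Il6st were the 2 rises of 15 tested chemokines, interleukins and receptors, and 1 gene, Pf4, fell (-0.56, adjusted p = 0.0313). Hyou1, a chaperone of the endoplasmic reticulum, had 165, 142, 156, 149 and 169 in F344 against 663, 407, 339, 367 and 255 in ACI (log2 change -1.31 ± 0.26, adjusted p = 0.0012). It was the 1 fall of 11 tested genes of its list, and 1 gene, Ddit3, rose (0.70, adjusted p = 0.0139). Neither Pf4 nor Ddit3 passed without ACI 2 and ACI 5 (0.136 and 0.122). Shares of all genes called higher and lower were 3.43% and 8.21%. Bak1, which opens mitochondria in apoptosis, had 143 to 187 in F344 against 272 to 363 in ACI (log2 change -0.94 ± 0.20, adjusted p = 0.00179). Of 37 cytosolic ribosomal protein genes, Rpl27 rose (0.39, adjusted p = 0.0237, lost without ACI 2 and ACI 5 at 0.0736 and under quantile normalization) and Rps24 fell (-1.27, adjusted p = 0.000426). Nrg1, a ligand of ErbB receptors, had 13.3 to 47.7 in F344 against 52.2 to 108 in ACI (adjusted p = 0.0313) and did not pass under quantile normalization or median centring.

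In the lists of brown adipocytes, endothelium, T lymphocytes, B lymphocytes, peripheral nerve, keratinocytes and hair, cytosolic heat shock proteins and interferon response, with 3, 6, 9, 1, 8, 2, 14 and 11 genes tested, 0 passed in limma. The counts at an unadjusted p below 0.05 were 1, 1, 0, 0, 1, 1, 0 and 2.

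The array of pooled F344 RNA entered no test. For 25 of the 30 genes ranked by change its signal lay within the range of the 5 F344 arrays, and for 0 within that of the 5 ACI arrays. The 30 genes were chosen for ranges that do not overlap, so a signal within the F344 range could not lie within the ACI range. No conclusion is drawn from this comparison. The signal of the pool was 1193 for Grifin, 1521 for Gm2a and 333 for Fgg. Whether the pool holds RNA of the same animals is not given.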
